A study of Mus musculus with 2 samples.

Results

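The proteins that build the core of the spliceosome are encoded here by 46 genes, chosen by gene symbol from a list of Sm and LSm proteins, proteins of the U1, U2 and U5 particles and of the U4/U6.U5 tri-snRNP, U2AF and SF1, the PRP19 complex and the helicases Ddx46 and Dhx15. All 46 symbols were found among the 24034 genes of the deposited table. Messenger RNA was sequenced from RAW264.7, a macrophage-like cell line of mouse origin, in 1 library labelled SFRS8 siRNA and 1 library labelled negative control. The titles of both are marked 5 d, and the labels do not say from when the days are counted. Cells of both libraries were grown in DMEM with fetal bovine serum, and the labels name no further treatment. Sfswap, formerly SFRS8, encodes a protein that regulates alternative splicing. Since each group is 1 library, the differences below have no replicates behind them and carry no p-value.

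The spliceosome removes introns from pre-messenger RNA. It is assembled on each intron from small nuclear ribonucleoproteins (snRNPs), particles that each hold a small nuclear RNA, a ring of Sm proteins (or LSm proteins in the case of U6) and proteins of their own. U1 recognises the start of the intron and U2 the branch site, U4/U6.U5 then joins as a tri-snRNP, and the PRP19 complex accompanies the rearrangements that make the catalytic centre. All cells that splice need these proteins, macrophages included.

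Levels are FPKM (fragments per transcript length and sequencing depth), so that levels of different genes are compared per length. A difference is log2(FPKM + 1) in the siRNA-labelled library less that in the control, given for the 10214 genes whose mean over both libraries reached 1 FPKM. A ratio of counts is per library total, and its 95% interval is exact and covers counting error only. The median difference over all 10214 genes was 0.11, so a typical gene was slightly higher in the siRNA-labelled library.

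Sfswap was not lower in the library labelled SFRS8 siRNA, at 3.38 FPKM against 2.92 FPKM in the control (1664 against 1423 counts, ratio 1.16). Directions below therefore belong to the library labelled SFRS8 siRNA, and a loss of Sfswap was not measured. The counts summed to 55411201 and 54847367. Of 10 macrophage markers, all had counts in both libraries and 4 were higher in the siRNA-labelled library. Levels summed over the 10 were 16069 FPKM in the siRNA-labelled and 17929 FPKM in the control library, mostly from Lyz2 (13998 against 15652 FPKM). Fcgr3 of this list was near 0, at 0.28 against 0.35 FPKM. Markers of heart muscle (33 of 34 higher in the siRNA-labelled library, 17820 against 1207 counts), red blood cells (6 of 6 in the table, 457 against 18 counts) and fibroblasts (9 of 11, 576 against 155 counts) moved with the siRNA label. In the control library 16 of the heart muscle markers were at 0, Actc1, Myl2 and Myl3 among them. The part of these transcripts in the differences below was not tested. In bulk RNA, fewer cells of a type and less RNA per cell cannot be told apart.

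The core spliceosome genes were expressed throughout and differed little between the libraries. All 46 passed the minimum of 1 FPKM, with 622 to 26983 counts per gene and library. Levels ran from 4.34 FPKM (Prpf4) to 104.6 FPKM (Lsm4) in the siRNA-labelled library and from 3.51 FPKM (Ddx46) to 115.9 FPKM (Lsm4) in the control. Their summed level was 1398 against 1356 FPKM. The median difference was 0.08, beside 0.11 over all genes and 0.09 over the 5870 genes whose mean FPKM lay within the range of the 46. Of the 46 differences 29 were above 0 (63.0%), against 66.9% of all genes.

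A single gene, Snrnp70, was at least 1.5-fold higher in the siRNA-labelled library on the log2(FPKM + 1) scale, which is 2.17% of the 46 against 4.91% of all genes. None was at least 1.5-fold lower, against 2.18% of all genes. At a lower limit of 0.32 on the same log2 scale, 8 of the 46 were higher (17.4%, against 22% of all genes). These were Snrnp70, Lsm5, Ddx46, Dhx15, Cdc5l, Sf3a3, Lsm8 and Sf3b1. None of the 46 was lower by that much, against 5.53% of all genes, and none was 2-fold higher or lower, against 1.18% and 0.783%. The interquartile range of the 46 differences was 0.25 (from -0.03 to 0.22), and that of all genes 0.35. The share of these genes past either limit was thus near or under that of all genes.

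**Figure D1:**
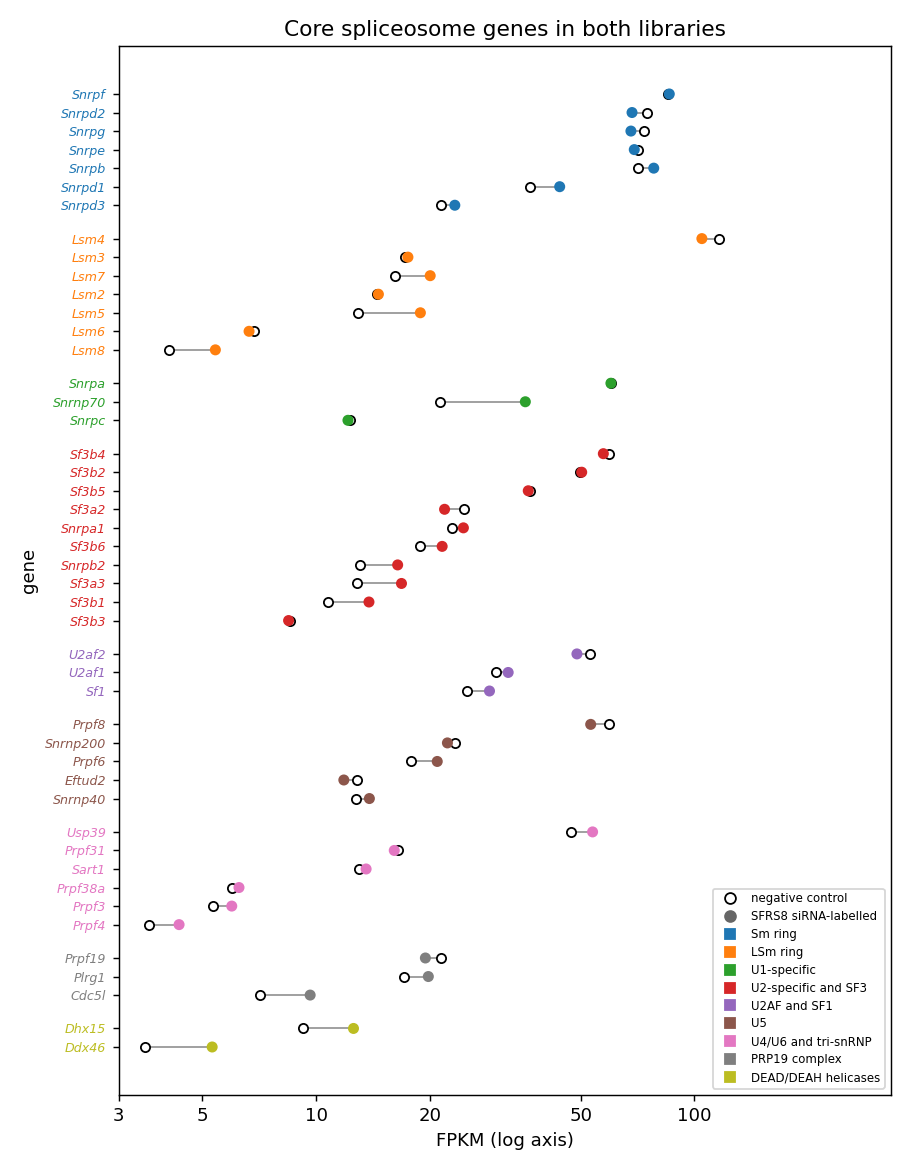
FPKM on a log axis of the 46 core spliceosome genes in the negative control (open circles) and the SFRS8 siRNA-labelled library (filled circles), grouped and coloured by role, with 1 library per group and so no error bars. Most pairs of circles lie close together, and the widest gaps are those of Snrnp70 (35.7 against 21.2 FPKM), Ddx46 (5.30 against 3.51 FPKM) and Lsm5 (18.8 against 12.9 FPKM).

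The gene farthest apart was Snrnp70 (ENSMUSG00000063511, chromosome 7, 45376453 to 45395742, minus strand), which encodes U1-70K, the U1 protein that binds the first stem loop of U1 RNA. It stood at 35.7 FPKM in the siRNA-labelled library and at 21.2 FPKM in the control, from 16690 and 9817 counts. The siRNA-labelled library was the higher one, and the difference was 0.73, above that of 97.6% of all genes. The ratio of counts was 1.68 (1.601 to 1.77), and this interval met that of neither other U1 protein. Snrpa (the U1 A protein, which binds the second stem loop) stood at 60.1 against 60.3 FPKM, with a ratio of 0.996 (0.944 to 1.05). Snrpc (the U1 C protein, which stabilises the pairing of U1 with the start of the intron) stood at 12.1 against 12.3 FPKM, with a ratio of 0.99 (0.91 to 1.07). The 3 U1-specific proteins therefore differed unequally between the libraries. The longest transcript of Snrnp70 matched no other gene of the table over 100 nt at 98% identity, and the gene that overlaps it on the opposite strand, the snoRNA Gm22478, had 5 against 2 counts. The value is for the whole gene and does not separate its 17 annotated transcripts.

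The Sm proteins, which form the ring common to U1, U2, U4 and U5, had levels within a 4-fold range and a summed level of 437 FPKM in the siRNA-labelled and 433 FPKM in the control library. In the control the order was Snrpf at 85.1 FPKM, Snrpd2 at 74.9 FPKM, Snrpg at 73.7 FPKM, Snrpe at 70.8 FPKM, Snrpb at 70.7 FPKM, Snrpd1 at 36.7 FPKM and Snrpd3 at 21.3 FPKM. In the siRNA-labelled library Snrpf was again the highest at 85.8 FPKM, Snrpb came next at 78.0 FPKM, and Snrpd1 (44.0 FPKM) and Snrpd3 (23.2 FPKM) were again the lowest. Snrpd2, Snrpg, Snrpe and Snrpb lay close together in the control, with no replicates to set their gaps against.

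Differences within the Sm ring ran in both directions and none reached 0.32. Snrpd1 had the highest, 0.26, from 5542 against 4579 counts (ratio 1.198, 1.11 to 1.297). Snrpb, the protein SmB, had a ratio of 1.10 (1.04 to 1.17) and Snrpd3 of 1.09 (1.002 to 1.18). Snrpe and Snrpf had ratios of 0.977 and 1.007, with intervals on both sides of 1. Snrpd2 at 68.4 FPKM in the siRNA-labelled library (ratio 0.91, 0.87 to 0.96) and Snrpg at 67.9 FPKM (ratio 0.92, 0.86 to 0.99) were the lower ones. The median of the ring was 0.01, so 3 of its 7 genes were above and 4 below the median of all genes.

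The LSm proteins form the ring that holds the tail of U6 RNA; most of them also serve, with Lsm1, in the decay of messenger RNA in the cytoplasm. Their levels were far less even than those of the Sm ring, with the highest 28.3 times the lowest in the control library, against 3.99 times in the Sm ring. Lsm4 stood at 104.6 against 115.9 FPKM, with a ratio of counts of 0.90 (0.84 to 0.96). All other LSm genes lay far below this in both libraries. Lsm8, the subunit that marks the nuclear ring, was the lowest at 5.41 against 4.09 FPKM, and Lsm6 was next at 6.64 against 6.82 FPKM.

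Lsm5 was the LSm gene farthest apart, at 18.8 FPKM in the siRNA-labelled and 12.9 FPKM in the control library. It also had the fewest counts of all 46 genes, 917 against 622, and its ratio of 1.46 had an interval from 1.18 to 1.79. Lsm8 had a ratio of 1.32 (1.12 to 1.56) and Lsm7, at 20.01 against 16.2 FPKM, of 1.24 (1.08 to 1.41). Lsm2 (14.6 against 14.5 FPKM), Lsm3 (17.5 against 17.2 FPKM) and Lsm6 had ratios between 0.97 and 1.02. The summed level of the ring was 188 FPKM in both libraries, since Lsm4 made up more than all the others together and was the lower one in the siRNA-labelled library.

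The U2 particle adds Snrpa1 and Snrpb2, which bind U2 RNA as a pair, and the SF3a and SF3b complexes, which clamp U2 onto the branch site. The 2 partners of the pair stood at 24.5 against 22.8 FPKM (Snrpa1) and at 16.4 against 13.0 FPKM (Snrpb2), with ratios of 1.07 (0.99 to 1.17) and 1.26 (1.12 to 1.41). In SF3a, Sf3a3 stood at 16.8 against 12.8 FPKM with a ratio of 1.31 (1.17 to 1.47), while Sf3a2 stood at 21.8 against 24.6 FPKM with a ratio of 0.89 (0.81 to 0.97). The intervals of these 2 subunits of one complex did not meet. A further SF3a subunit outside the 46 genes, Sf3a1, stood at 28.8 against 31.8 FPKM with a ratio of 0.90 (0.86 to 0.95). Sf3a2 had the lowest difference of the 46 genes, -0.16. It overlaps Plekhj1 on the opposite strand (2569 against 2405 counts), and the strand setting of the counting is not given in the sources used here.

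In SF3b, Sf3b1, the large subunit that holds the branch site and is often mutated in blood cancers of humans, stood at 13.8 against 10.8 FPKM (ratio 1.28, 1.203 to 1.36). Sf3b6, which contacts the branch-site region, stood at 21.5 against 18.8 FPKM (ratio 1.14, 1.04 to 1.255). The other SF3b genes among the 46 had ratios close to 1. Sf3b2 stood at 50.3 against 49.7 FPKM, Sf3b3 at 8.45 against 8.51 FPKM, Sf3b4 at 57.4 against 59.4 FPKM and Sf3b5 at 36.3 against 36.7 FPKM. The 10 genes of U2 and SF3 had a median difference of 0.06, with 6 above 0 (60%, against 66.9% of all genes).

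U2AF and SF1 read the end of the intron before U2 joins. U2af2, which binds the polypyrimidine tract, stood at 48.9 against 53.0 FPKM, with a ratio of 0.92 (0.88 to 0.97). Its partner U2af1, which reads the AG at the end of the intron, stood at 32.2 against 29.8 FPKM, with a ratio of 1.08 (0.995 to 1.17). Sf1, the first protein to bind the branch site, stood at 28.7 against 25.04 FPKM, with a ratio of 1.15 (1.08 to 1.21). The 3 genes thus lay on both sides of the control level.

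The 3 large U5 proteins, Prpf8, Eftud2 and Snrnp200, stood a little under their control levels. Prpf8, the scaffold of the catalytic centre, had the most counts of the 46 genes, 24330 against 26983, and stood at 53.2 against 59.5 FPKM. Its difference was -0.16 and its ratio 0.89 (0.86 to 0.92), so a gap of this size was outside counting error. Eftud2, a GTPase, stood at 11.8 against 12.8 FPKM (ratio 0.92, 0.86 to 0.99), and Snrnp200, the helicase that unwinds U4 from U6, at 22.2 against 23.3 FPKM (ratio 0.954, 0.904 to 1.006). These 3 proteins are partners in the U5 particle. Snrnp40, a WD-repeat protein, stood at 13.8 against 12.8 FPKM, and Prpf6, which bridges U5 and U4/U6, at 20.9 against 17.8 FPKM (ratio 1.17, 1.08 to 1.27).

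Of the U4/U6 and tri-snRNP proteins 5 of 6 had differences above 0 (83.3%, against 66.9% of all genes), all under 0.32. Usp39, a ubiquitin-peptidase-like protein of the tri-snRNP, was the most abundant at 53.8 against 47.3 FPKM (ratio 1.14, 1.07 to 1.21). Prpf4 stood at 4.34 against 3.61 FPKM (ratio 1.201, 1.03 to 1.40), its U4/U6 partner Prpf3 at 5.98 against 5.32 FPKM (ratio 1.12, 0.99 to 1.27), and Prpf31, which binds U4 RNA, at 16.1 against 16.4 FPKM (ratio 0.98, 0.91 to 1.05). Sart1, which helps to hold U5 and U4/U6 together, stood at 13.5 against 12.9 FPKM and Prpf38a, a protein of the activation step, at 6.24 against 5.98 FPKM. The median of the 6 genes was 0.10, next to the median of all genes.

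In the PRP19 complex the genes differed unequally. Prpf19, the ubiquitin ligase that names it, stood at 19.4 against 21.4 FPKM, with a ratio of 0.91 (0.86 to 0.96). Its partner Cdc5l stood at 9.63 against 7.10 FPKM, with a ratio of 1.36 (1.18 to 1.56), and Plrg1 at 19.8 against 17.0 FPKM, with a ratio of 1.16 (1.05 to 1.28). The interval of Prpf19 met neither of the others.

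The helicases Ddx46 and Dhx15 were both higher in the siRNA-labelled library. Ddx46 (the PRP5 helicase, which acts when U2 takes up the branch site) stood at 5.30 against 3.51 FPKM, from 2374 and 1558 counts. Its difference was 0.48 and its ratio of counts 1.51 (1.32 to 1.72). Dhx15, which takes the spliceosome apart after the reaction, stood at 12.5 against 9.20 FPKM, with a difference of 0.41 and a ratio of 1.36 (1.26 to 1.47). Across the 46 genes, 19 intervals lay above 1, 8 below 1, and 19 included 1. Over all genes 39.4% of intervals lay above 1 and 12.9% below it, and the median ratio of all genes was itself above 1 (0.13 on the log2 scale).

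**Figure D2:**
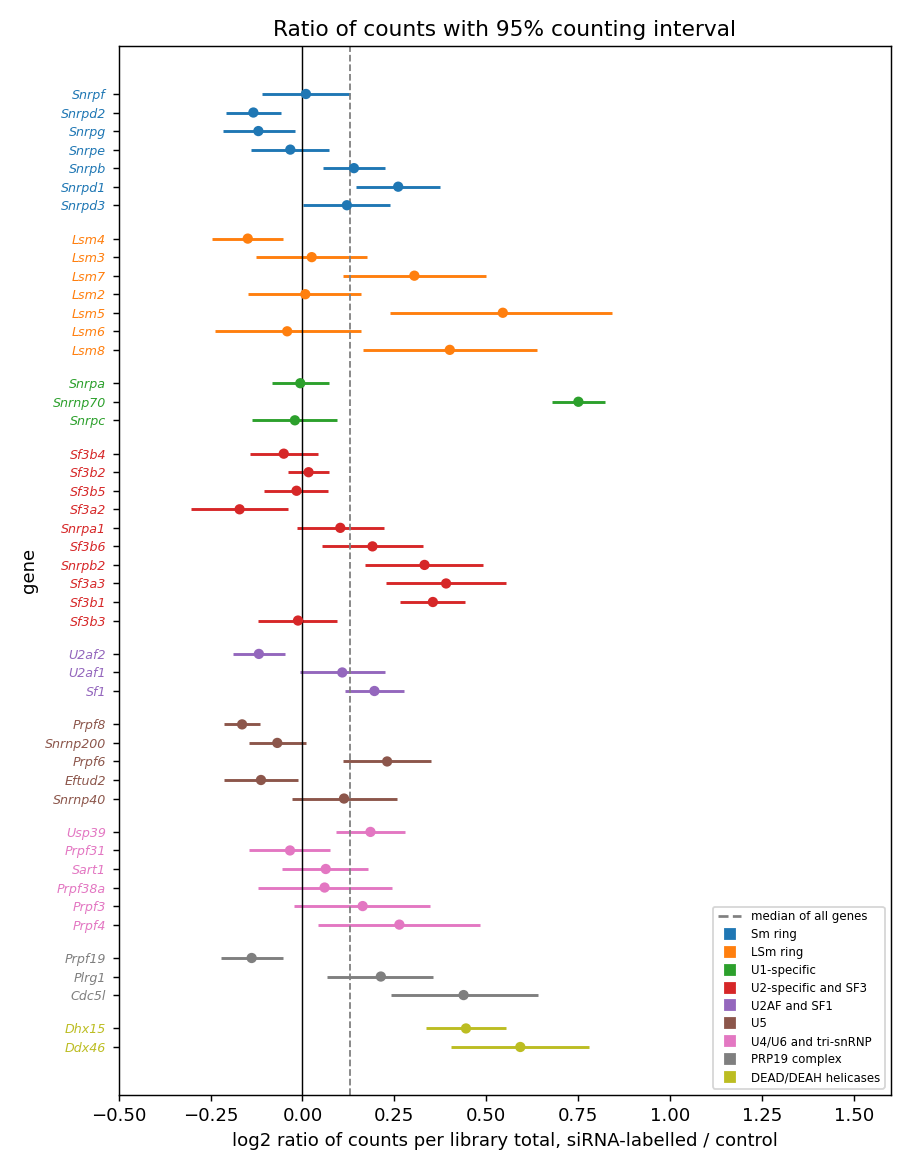
Ratio of counts per library total on a log2 axis (siRNA-labelled over control) of the 46 genes, grouped and coloured by role, with 95% intervals that cover counting error only, from 1 library per group. The solid line is a ratio of 1 and the dashed line the median of all genes (0.13 on the log2 scale), and the point of Snrnp70 (ratio 1.68) is the farthest to the right.

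The differences of the 46 genes followed the GC content of their transcripts, as did those of all genes. Across genes, which are not independent replicates and here come from the same 2 libraries, Spearman's rho between the GC content of the longest transcript and the difference was -0.35 over the 46 genes and -0.46 over all 10214. Among the 11 core genes under 45% GC the median difference was 0.26, beside 0.31 for all genes in that range. From 45% to 50% it was 0.07 over 14 genes, beside 0.18, and from 50% to 55% it was -0.00 over 15 genes, beside 0.03. Among the 6 genes from 55% upward it was 0.07, beside -0.03. Differences, taken with their sign, ran lower at higher levels, with a rho of -0.44 against mean FPKM over the 46 genes and -0.22 over all genes.

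Snrnp70 lay away from this trend. The adjustment took the trend from each difference and added the median of all genes, so a gene on the trend came to 0.11. The longest transcript of Snrnp70 has 57.3% GC, where the trend was -0.03. Its adjusted difference was 0.86 in place of 0.73, and most of this rise is the added median. Lsm5 has the lowest GC content of the 46 genes, 33.9%, and its adjusted difference was 0.24 in place of 0.51. Ddx46 (45.1% GC) came to 0.34, Dhx15 (43.4%) to 0.23, Cdc5l (47.0%) to 0.31, Sf3b1 (42.1%) to 0.12 and Lsm8 (39.7%) to 0.10. Snrpd1 came to 0.07 in place of 0.26, and Snrpb2 to 0.08 in place of 0.31. Sf3a3, at 49.8% GC, kept 0.37. Lsm7, at 55.5% GC, came to 0.41 in place of 0.29. The trend there was -0.01, so nearly all of this rise is the added median. After the adjustment, added median included, 4 of the 46 genes (Snrnp70, Lsm7, Sf3a3 and Ddx46) were higher by 0.32 or more, against 15.05% of all genes. Of these, Snrnp70 alone would pass without the added median.

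On the lower side, Prpf8 came to -0.11 and Sf3a2, with the highest GC content of 62.2%, to -0.03. Snrpe and Snrpf, at 42.0% and 41.3% GC, came to -0.24 and -0.20 although their unadjusted differences were -0.03 and 0.01. Snrpg came to -0.22 in place of -0.12 and Prpf38a to -0.18 in place of 0.05. Snrpe was the lowest of the 46 genes after the adjustment. The adjusted median of the 46 genes was 0.06, beside 0.11 over all genes.

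**Figure D3:**
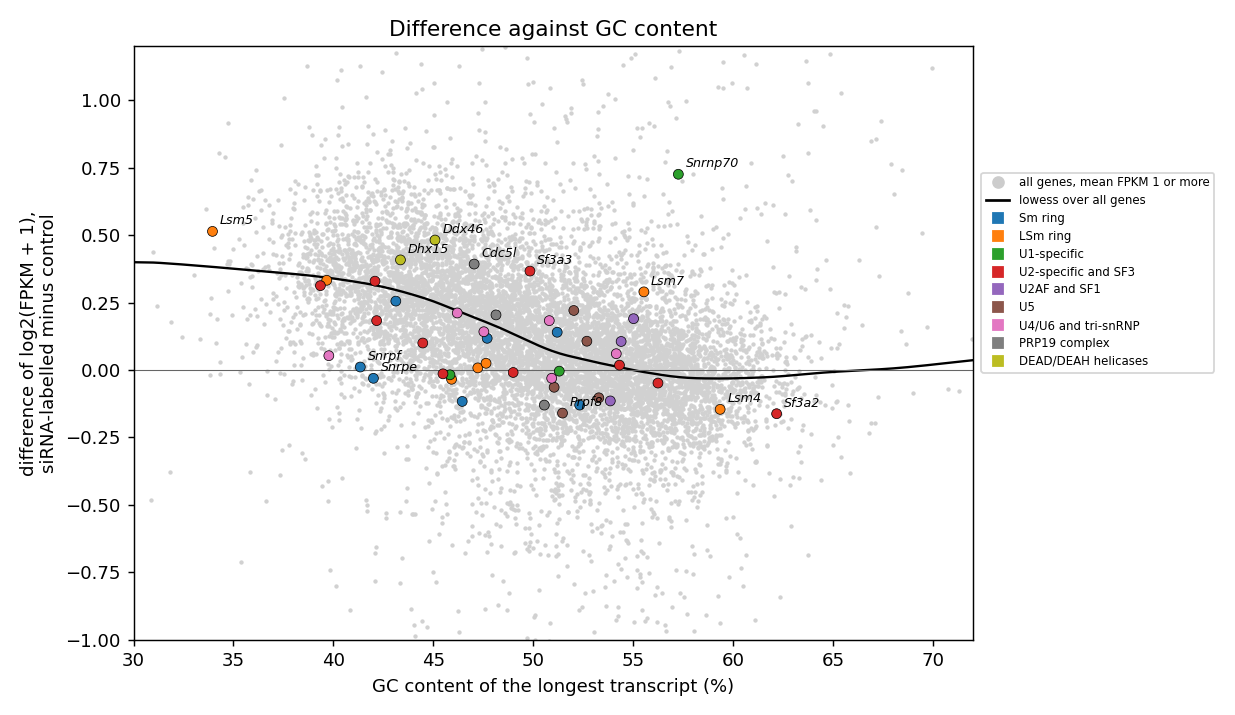
Difference in log2(FPKM + 1) between the siRNA-labelled library and the control, against the GC content (%) of the longest transcript for all 10214 genes (grey; genes beyond the vertical axis are not drawn) and for the 46 core spliceosome genes, coloured by role. The black line is the lowess trend over all genes, and Snrnp70 lies well above it at 57.3% GC and 0.73.

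Shown next are the 200 bases before the start of the 3 genes with the highest differences and of Prpf8, the gene with the lowest difference whose window lies upstream of its gene model in the deposited table (RefSeq, GRCm38.p6). Capitals mark a match, on either strand, to one of the motifs searched, which were the NRF1 palindrome (the capitals in Snrnp70), the core CCGGAAG bound by ETS factors, the CCAAT box of NF-Y, the GC box GGGCGG of SP factors, the TATA box in its form TATAAA and the core AAGATGGC bound by YY1. The windows are chr7:45395743-45395942 on the minus strand for Snrnp70, chr6:56704700-56704899 on the minus strand for Lsm5, chr13:55634799-55634998 on the plus strand for Ddx46 and chr11:75486577-75486776 on the plus strand for Prpf8. The last bases of the Lsm5 window lie inside its deposited gene model.
Snrnp70: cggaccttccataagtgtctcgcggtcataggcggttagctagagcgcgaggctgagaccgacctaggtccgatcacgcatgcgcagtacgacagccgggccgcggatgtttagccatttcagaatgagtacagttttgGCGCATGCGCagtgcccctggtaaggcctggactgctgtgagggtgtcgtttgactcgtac
Lsm5: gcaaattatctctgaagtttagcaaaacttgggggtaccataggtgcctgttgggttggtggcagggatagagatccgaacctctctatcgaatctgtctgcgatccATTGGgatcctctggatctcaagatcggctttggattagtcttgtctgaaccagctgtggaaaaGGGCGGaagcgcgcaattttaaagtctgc
Ddx46: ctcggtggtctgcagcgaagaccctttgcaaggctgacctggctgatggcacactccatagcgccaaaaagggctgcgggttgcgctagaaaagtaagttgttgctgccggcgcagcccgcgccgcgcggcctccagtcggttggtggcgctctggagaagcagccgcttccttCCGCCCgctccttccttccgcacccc
Prpf8: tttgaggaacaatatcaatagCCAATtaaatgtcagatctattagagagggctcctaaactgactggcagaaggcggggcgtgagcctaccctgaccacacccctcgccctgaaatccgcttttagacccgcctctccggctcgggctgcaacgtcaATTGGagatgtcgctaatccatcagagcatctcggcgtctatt

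Snrnp70 holds an NRF1 motif whose first base is at -61 from the start. Of the 37 core genes with a RefSeq promoter window (250 bases before to 50 after the start), it was the only one with this motif (2.70%), which 2.60% of 7192 expressed genes and 0.971% of all 32851 windows hold. Lsm5 has a CCAAT box on the opposite strand at -93 and a GC box at -29. Ddx46 has a GC box on the opposite strand at -26, and Prpf8 has CCAAT boxes at -179 and, on the opposite strand, at -43. The matches shown do not overlap each other. Of the 3 highest genes, Lsm5 and Ddx46 hold a GC box within the bases shown. Snrnp70 holds one as well in the full window of 250 bases before to 50 after the start, as do 71.7% of expressed genes.

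Over the 37 genes, 15 (40.5%) hold the ETS core, Lsm5, Sf3b2, Sf3b3, Snrpe and Snrpg among them, against 23.4% of expressed genes and 8.86% of all windows. The GC box was in 24 (64.9%, against 71.7% and 35.7%), CCAAT in 17 (45.9%, against 43.5% and 37.4%), TATAAA in 2 (5.41%, against 7.91% and 13.6%) and the YY1 core in 1 (2.70%, against 6.05% and 2.75%). A match describes the letters of the window and is no evidence of binding.

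Processed copies of these genes, retrotransposed pseudogenes whose reads can be assigned to the parent gene or the reverse, were in the table for 11 of the 46 genes, 15 copies in all. For 7 genes at least 25% of the longest transcript was shared with another gene. Lsm5 shares 34.2%, and its copies were also higher in the siRNA-labelled library, Gm10074 at 24.0 against 16.9 FPKM and Gm7846 at 22.9 against 13.7 FPKM. Summed with them, the ratio of Lsm5 was 1.49. Lsm7, which shares 27.8% of its transcript, had the copy Gm10146 at 18.8 against 19.2 FPKM, and its summed ratio was 1.19 in place of 1.24.

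Copies of Sm genes ranged from levels near the parent's to far below it. Snrpg, which shares 21.9%, had Gm8186 at 64.0 against 76.1 FPKM, Snrpf had Gm13092 at 61.9 against 52.5 FPKM, while Snrpe had Snrpert at 24.3 against 24.8 FPKM and Snrpd2 had Gm10120 at 1.83 against 1.63 FPKM. Summed ratios were 0.91 for Snrpg, 1.03 for Snrpf and 0.98 for Snrpe, close to the values of the parents alone. Of U2af1, 68.8% of the transcript is shared, mainly with Gm10232 (17.0 against 14.7 FPKM), and of Sf3b4 66.6% with Gm7935 (0.58 against 1.69 FPKM). Levels of these parents and copies are uncertain, since the counting could divide reads between them.

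Other genes of the splicing machinery, from lists of 91 genes of which 82 were measured, had a median difference of 0.13, with 64 above 0 (78.0%, against 66.9% of all genes). Past 1.5-fold were 3 upward and 1 downward, beside 4.91% and 2.18% of all genes. The proteins that accompany U1 all had differences above 0, with a median of 0.37 over 6 measured genes. The smallest difference, 0.04, was that of Prpf40b, whose interval included 1 (ratio 1.04, 0.90 to 1.19). After the adjustment for GC content the median of the 6 was 0.20, beside an adjusted median of 0.11 over all genes. Among them Luc7l3, a U1-associated factor in splice-site choice, stood at 2.73 against 1.47 FPKM (ratio 1.85, 1.52 to 2.25). Of the U1 particle itself, Snrnp70 was higher in the same library, while Snrpa and Snrpc had ratios of 0.996 and 0.99, as given above.

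Among the 16 genes listed for the assembly of snRNPs, 11 were above 0 (68.8%, against 66.9% of all genes) and the median was 0.12. Gemin7, a subunit of the SMN complex, which loads the Sm ring onto the RNA, stood at 5.67 against 11.5 FPKM (ratio 0.49, 0.40 to 0.60) and was the single gene at least 1.5-fold lower. Tgs1, which trimethylates the cap of the RNA, stood at 2.15 against 1.301 FPKM (ratio 1.65, 1.28 to 2.11). The Sm genes loaded by this complex had, as given above, a median difference of 0.01.

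Of 19 further proteins of the early complexes 15 were above 0 (78.9%, against 66.9% of all genes) with a median of 0.07. Rbm17 stood at 21.5 against 13.6 FPKM (ratio 1.59, 1.42 to 1.78), and Ppih, a cyclophilin of the tri-snRNP, at 1.75 against 0.90 FPKM from 206 against 104 counts. Ppih shares 43.9% of its transcript with other genes, so its level is uncertain. Of 26 further proteins of the activated and catalytic spliceosome 21 were above 0 (80.8%, against the same 66.9%) with a median of 0.12. Ppil1, a cyclophilin, stood at 8.93 against 4.73 FPKM (ratio 1.88, 1.57 to 2.27), and Crnkl1 at 3.38 against 2.05 FPKM (ratio 1.65, 1.31 to 2.09). Proteins of the minor spliceosome had a median of 0.04 over 9 genes, with Snrnp48 at 3.89 against 2.71 FPKM and Zmat5, which shares 43.1% of its transcript, at 12.1 against 14.4 FPKM. Relatives of the Sm and LSm proteins had a median of 0.20 over 6 genes, all above 0 (against 66.9% of all genes). Of these, Lsm14a stood at 14.3 against 10.4 FPKM and Lsm12 at 23.5 against 18.6 FPKM.

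**Figure D4:**
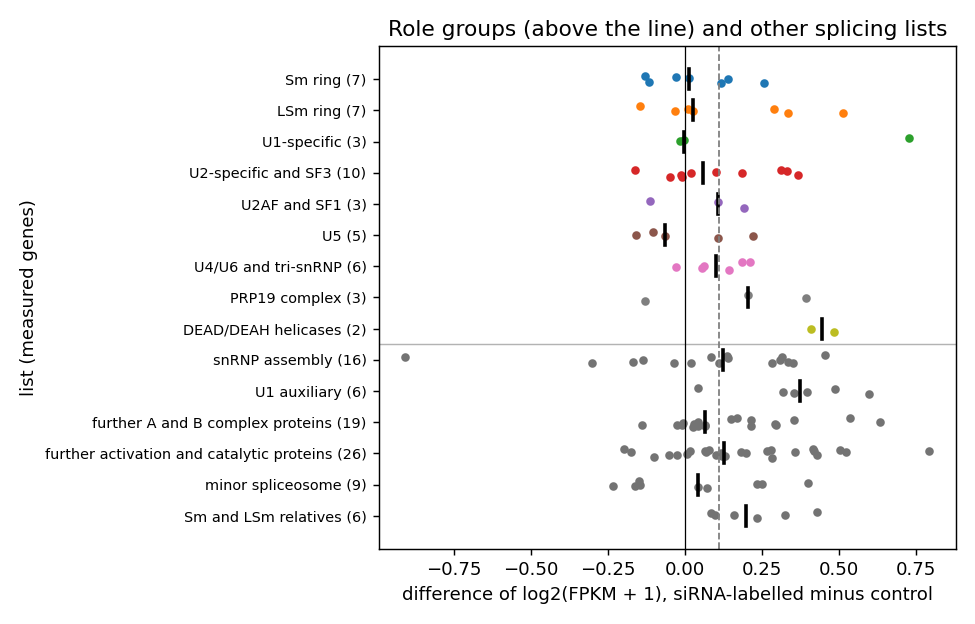
Difference in log2(FPKM + 1) between the siRNA-labelled library and the control, of every measured gene in the role groups of the 46 core genes (above the grey line) and in other splicing lists (below it), with the number of genes in brackets, a black bar at each median and a dashed line at the median of all genes (0.11). The U5 group has the lowest median of the role groups (-0.06) and the helicase pair the highest (0.44), while after adjustment for GC content the Sm ring is the lowest (-0.06) and the helicase pair is at 0.28, and Snrnp70 stands alone to the right of the other U1 proteins.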

How the data were processed

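The deposited table holds, per the file headers, FPKM values and counts per gene, made by the authors for poly(A) RNA of 2 RAW264.7 libraries, 1 per group. HISAT2 2.0 and StringTie 1.3.0 are listed as tools per the submitters' processing notes, with genome build and strand setting not given in the sources used. Coordinates of 41 of the 46 genes are identical in GENCODE vM21 (GRCm38), whose transcripts gave GC content. The deposited counts are treated as estimated counts: among low counts (1 to 20), 45.1% and 42.7% fell on a multiple of 4, so counts were divided by 4 before exact Clopper-Pearson limits (95%) were computed. For the 46 genes, log2 ratios of the deposited counts and of FPKM without a pseudocount were the same to within 0.0145, so they are 1 measure, not 2. No test was run, with 1 library per group. The pseudocount of 1 understates differences of low genes, as for Ddx46 (0.48, against 0.59 from counts scaled to the library total). Every role group and list was described by counts and medians. The 46 genes and all lists, GC content and shared sequence included, were chosen with earlier results of these data known. Named beyond the 46 were Sfswap, the genes at least 1.5-fold apart in each other list or else the 2 farthest apart, and sharing genes; other names were chosen after values were seen. A gene that this rule names is not reported here. Shared sequence was found with blastn 2.17.0 (98% identity, 100 nt). GC adjustment subtracted a lowess trend with a span of 0.3 and added the median difference of all genes back. Promoters came from RefSeq (GRCm38.p6), with 37 genes matched. Alternatives were other pseudocounts, filters, limits, scalings and removal or summing of sharing genes. Interval and fold steps were tested on simulated data. Software was Python 3.11.15 with statsmodels 0.14.6 (lowess), scipy 1.17.1 (intervals), matplotlib 3.10.9 (plots), pandas 2.3.3 and numpy 2.4.6.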

Additional observations from a re-analysis of the deposited data

How the results depend on the processing

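The number of core genes at least 1.5-fold higher was 1 (Snrnp70) with a pseudocount of 0.1 or 5, with no minimum or a mean of at least 5 FPKM, with FPKM scaled to a common sum, after centring on the median of all genes, after adjustment for GC content and without sharing or overlapping genes. It was 2 with counts scaled to the library total and 2 with copies summed, where Ddx46 (ratio 1.51) joined. With a limit of 2-fold it was 0 and with the lower limit of 0.32 (log2) it was 8. The number lower was 0 throughout. The difference of Snrnp70 ranged from 0.62 (centred) to 0.86 (adjusted for GC content). The median of the 46 genes was 0.053 with a mean of at least 5 FPKM, 0.126 with FPKM scaled to a common sum and -0.029 after centring, which turned its sign. Of 90 medians of role groups 15 moved by more than counting error; the helicase pair came to 0.28 after adjustment for GC content and 0.29 with a pseudocount of 5. Signs changed in at least 1 alternative for 18 genes, all less than 0.2 apart as reported; Snrpf came to -0.20 after adjustment for GC content. No paired analysis was possible because each group has 1 library. With 1 library per group, counting intervals leave out the spread between cultures.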

Other observations

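The deposited table's KEGG column places 45 of the 46 genes in the Spliceosome pathway, Sf1 being the exception, together with 85 other genes, of which 78 were measured. These others had a median difference of 0.20, with 68 of 78 above 0 (87.2%, against 66.9% of all genes). After adjustment for GC content their median was 0.16, beside 0.11 over all genes. At least 1.5-fold higher were 5 and lower 1, beside 4.91% and 2.18% of all genes. The higher ones were Ppil1, Rbm17, Srsf1, Srsf5 and Ddx5, a helicase at 29.9 against 18.0 FPKM. The lower one was Hspa1a, an inducible heat shock protein that KEGG lists in this pathway, at 4.90 against 11.3 FPKM. The 46 core genes, with a median of 0.08, lay lower than these others, and the gap between the lists was not tested.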
